A study of Mus musculus with 2 samples.

Results

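Among the cells sorted as GFP− from E14.5 *LHX4::GFP* mouse retinas, 148 carried transcripts of both *Otx2* and *Crx*, a pair of homeobox genes used by photoreceptor precursors. These cells were chosen by their measured UMI counts, where a UMI is a molecular tag that counts a captured transcript once. The limits were at least 2 *Otx2* UMIs, at least 1 *Crx* UMI and a mitochondrial share of UMIs under 0.25, with no upper limit on the number of genes. They were met by 148 of the 4444 GFP− cells under the mitochondrial limit (3.33%, 95% exact Clopper-Pearson interval 2.82 to 3.90) and by 3320 of the 3728 GFP+ cells (89.1%). Intervals on shares and UMI sums cover counting error only.

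The strain was Tg(Lhx4::EGFP)KN199Gsat/Mmucd, a bacterial artificial chromosome reporter kept as heterozygotes, in which *Lhx4* regulatory sequence drives EGFP, so GFP+ and GFP− cells both came from retinas carrying the transgene. Retinas of 2 litters were pooled before sorting, and each gate gave 1 droplet library, so no spread between animals could be measured, no test was run, and gate and library cannot be told apart. The gene table had 0 rows for GFP, and how bright each cell was is not known. The deposited matrices held 46778924 UMIs in 4445 GFP− cells and 16010591 UMIs in 3728 GFP+ cells.

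OTX2 is needed for photoreceptor fate and appears in retinal progenitors around their last division, and CRX, a related protein, follows in the postmitotic precursor and switches on photoreceptor genes. PRDM1 keeps such precursors from becoming bipolar cells, and NEUROD1 acts upstream of cone genes. Cones are among the earliest neurons born in the mouse retina, and the nuclear receptors THRB and RXRG are among their first markers.

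The numbers of cells at each count show how the limits divided the library. In the selected cells *Otx2* had a median of 7 UMIs (2 to 22) and *Crx* a median of 3 (1 to 13), and 72 of the 148 had at least 5 *Otx2* and at least 3 *Crx* UMIs. Just inside the limits were 10 cells with 2 to 4 *Otx2* UMIs and 1 *Crx* UMI. Just outside were 284 GFP− cells with at least 2 *Otx2* UMIs and no *Crx* UMI, and 4 cells with 1 *Otx2* UMI and at least 1 *Crx* UMI. A further 47 GFP− cells had a *Crx* UMI and no *Otx2*. Most GFP− cells with *Otx2* thus had no *Crx*, while most GFP+ cells had at least 2 UMIs of both. As *Otx2* and *Crx* set the limits, their levels are a description: summed *Otx2* was 1122 counts per 1000000 UMIs (CPM) in the selected cells and 1546 CPM in the GFP+ cells within the same limits, and summed *Crx* was 562 and 877 CPM.

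**Figure D1:**
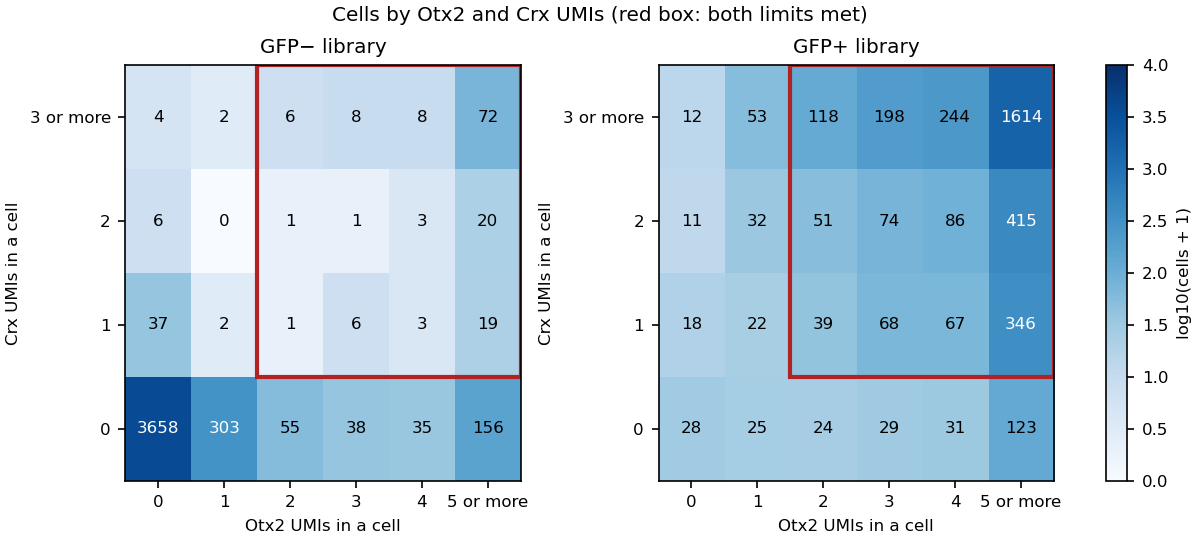
Number of cells by *Otx2* UMIs (x axis) and *Crx* UMIs (y axis) in the GFP− library (left) and the GFP+ library (right), shaded by log10(cells + 1), with the red box holding cells within both limits. In the GFP− library 3658 cells had neither gene and 284 had at least 2 *Otx2* UMIs without *Crx*, and in the GFP+ library 1614 cells fell in the corner with the most UMIs of both.

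The selected cells had a median of 6407.5 UMIs (2760 to 16618), against 10035 in the other 4296 GFP− cells and 3952 in the GFP+ cells within the same limits. They were thus neither the deepest nor the shallowest cells. Of the 148, 6 had over 3500 genes and 4 were called doublets by Scrublet, all of them among the 18 cells scored in S or G2M that are described below. The libraries shared 20 cell barcodes, of which 1 belonged to a selected cell. Scrublet marked 45 GFP− and 4 GFP+ cells in all. Shares of cells were also taken after thinning every cell to 3200 UMIs, which left out 5 selected cells and 438 GFP+ cells within the limits.

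Most of the selected cells scored as G1, the phase in which cells that have left the cycle also score. By phase scores 130 of the 148 were in G1 (87.8%), 7 in S and 11 in G2M, so that 12.2% were in S or G2M (95% interval 7.37 to 18.5) and 14.0% after thinning. The share was 66.1% in the other GFP− cells and 3.55% in the GFP+ cells within the limits. It was 84.9% in the 284 cells with *Otx2* and no *Crx*, 40% of the 10 cells just inside the limits and 2.78% of the 72 cells with the highest counts. Transcripts of cycling cells followed the same order. *Top2a*, the topoisomerase that untangles chromosomes before division, had a UMI in 10.1% of the selected cells, in 45.6% of the other GFP− cells, in 73.2% of those with *Otx2* and no *Crx*, and in 0.783% of the GFP+ cells within the limits. *Mki67*, a marker of proliferation, had a UMI in 8.78% of the selected cells, 33.4% of the other GFP− cells and 2.77% of those GFP+ cells. In cells with at least 2 UMIs of *Pou4f2* (ganglion cells, 541 cells, median 12577 UMIs) or *Tfap2b* (amacrine and horizontal cells, 311 cells, median 6870 UMIs), *Top2a* was found in 12.4% and 7.72%, and 7.02% and 7.07% of those cells scored in S or G2M themselves, so they are no clean background for it. The share with *Top2a* among the selected cells lay between these, and its level was higher, at 91.7 CPM against 21.7 and 28.7 CPM.

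The first question was what else, beyond the limits, set these cells apart from the rest of the GFP− library. Summed *Neurod1*, *Prdm1*, *Neurod4* and cone transcripts were higher in them, *Atoh7*, *Btg2* and *Hes6* among the neurogenic genes were also higher, and *Ccnd1*, *Hes1* and *Gap43*, genes of multipotent progenitors or ganglion cells, were lower. Not all of this was particular to them. In the 284 GFP− cells with *Otx2* and no *Crx* the neurogenic list summed higher still, and the ganglion list was at 845 against 772 CPM. The multipotent list was at 3274 CPM in those 284 cells, between 1244 CPM in the selected cells and 6771 CPM in the other GFP− cells. With 1 library per gate, a gene was called by size alone: a ratio of summed CPM of at least 2 or at most 0.5, with 0.5 added to both sums, among genes that reached 50 CPM in either group. A gene that reached 50 CPM in 1 group alone had its direction set by this filter, so counts over a list are descriptions, and the calls among genes that reached it in both groups are given beside them. Of 3357 such genes, 245 were higher (7.30%) and 220 lower (6.55%) in the selected cells, and the median gene had a log2 ratio of 0.15. Higher genes were 52.7% of the calls, but 41.6% with TMM factors and 40.3% with median-of-ratios size factors, which shift every log2 ratio by -0.17 and -0.19.

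Of 20 photoreceptor fate regulators, 15 reached 50 CPM, and 9 of these were higher and 1, *Nr2f1*, lower. The 9 hold *Otx2* and *Crx*, whose rise was set by the limits, and without them 7 of 13 were higher and 1 lower. Of the 15, only 7 reached 50 CPM in both groups, and of these *Otx2*, which chose the cells, and *Neurod1* were higher. *Prdm1* was at 165 CPM against 3.34 CPM in the other GFP− cells, a 49.2-fold ratio (95% interval 39.3 to 61.7). *Neurod1* was at 1103 against 60.8 CPM (18.1-fold, 16.9 to 19.4) and was found in 146 of the 148 cells. *Neurod4*, a related bHLH factor of neurogenesis, was at 498 against 6.31 CPM (78.7-fold, 68.0 to 91.4). *Prdm1* was found in 94 of the 148 cells (63.5%, and 37.8% after thinning) but in 0.739% and 0.965% of the *Pou4f2* and *Tfap2b* cells. *Onecut1*, a factor of early cone and horizontal cell precursors, was 5.65-fold higher (4.53 to 6.92), and the LIM factor *Isl2* 8.69-fold higher (6.64 to 11.1). *Rorb*, *Rax* and *Casz1*, which progenitors also express, had ratios between 1.07 and 1.86, inside the limits of a call.

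A UMI of at least 1 cone gene was found in 103 of the 148 cells (69.6%), against 11.9% of the other GFP− cells, 24.2% of the *Pou4f2* cells and 5.14% of the *Tfap2b* cells. *Rxrg*, which the study states is also expressed in some ganglion cells, gave much of this outside the selected cells. It gave 375 of the 735 cone-list UMIs of the other GFP− cells and 116 of the 199 of the *Pou4f2* cells. Of 22 cone genes, of which *Thrb*, *Rxrg* and *Lhx4* are also on the list of regulators, 5 reached 50 CPM, all of them in the selected cells and 0 in the other GFP− cells, so that the filter itself set their direction and their values are given as a description. *Gngt2*, the cone transducin γ subunit, was at 235 CPM against 0.655 CPM (354-fold, 245 to 544), *Gnb3*, the cone transducin β subunit, at 99.7 against 0.896 CPM (111-fold, 76.7 to 164), and *Pdc*, which binds transducin βγ, at 132 against 0.0655 CPM, the latter from 3 UMIs (1728-fold, 672 to 9862). *Thrb* was at 164 against 3.32 CPM (49.2-fold, 39.3 to 61.8) and *Rxrg* at 67.8 against 8.19 CPM (8.33-fold, 6.30 to 10.7). *Lhx4*, the gene behind the reporter, stayed under 50 CPM, at 43.9 against 0.218 CPM, and 33 of these GFP− cells held a *Lhx4* UMI (22.3%, and 11.9% after thinning). A *Gngt2* UMI was found in 50 of the 148 cells (33.8%, interval 26.2 to 42.0, and 27.3% after thinning), against 0.370% of the *Pou4f2* cells and 0.322% of the *Tfap2b* cells. *Fabp7*, a fatty acid binding protein, was 85.2-fold higher than in the other GFP− cells (75.1 to 96.8), and *Meis2*, *Platr17*, *Cdhr1* and *Otop3* were 35.3-fold, 83.7-fold, 261-fold and 303-fold higher. Of the 22, 9 genes, among them *Arr3*, *Opn1sw*, *Opn1mw*, *Pde6h* and *Rcvrn*, had no UMI among the 1002882 UMIs of these cells, where 3 UMIs would be 2.99 CPM, and *Pde6h*, *Opn1mw* and *Rcvrn* had none in the GFP+ cells within the limits either. Other phototransduction genes had UMIs, with 36 of *Gnat2* (cone transducin α) and 43 of *Cngb3* (a cone channel subunit).

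The letters TAATCC are the preferred core of OTX2 and CRX, and they were searched on both strands in the RefSeq promoters of build GRCm38.p6 (250 bases before to 50 after each annotated start) as sequence context for the genes above. They occurred in the promoters of 5 of the 17 fate regulators with an entry (*Casz1*, *Crx*, *Nr2f2*, *Otx2* and *Thrb*) and of 6 of the 16 cone genes with an entry (*Aipl1*, *Gnat2*, *Guca1a*, *Gucy2e*, *Gucy2f* and *Thrb*), in 0 of 15 neurogenic genes, in 1 of 11 multipotent progenitor genes, and in 8.14% of all 27025 genes. Of the cone genes that reached 50 CPM in the selected cells, only *Thrb* is among the matches, and *Gucy2e* and *Gucy2f* had no UMI there. Windows of 30 bases are shown for *Crx*, *Thrb* and *Gnat2*, 1 gene each for the selecting factor, an early cone receptor and cone phototransduction, on the strand of the gene, with the match in capitals, here always in its reverse complement. The *Crx* windows lie at chr7:15880032-15880061 and chr7:15879959-15879988 on the minus strand, with matches that begin 94 and 21 bases before the start, the *Thrb* window at chr14:17660902-17660931 on the plus strand (46 bases before) and the *Gnat2* window at chr3:108093035-108093064 on the plus strand (19 bases before). A match describes the letters and is not evidence of a bound site.
Crx at 94: gtgggggtggtgGGATTAagcagacggtgc
Crx at 21: ccaccttccctgGGATTAcccttccagatc
Thrb at 46: cgtgacgcggcgGGATTAactttgcatggc
Gnat2 at 19: gggacaatccccGGATTAggaaggagctct

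Neurogenic genes, which act in progenitors about to leave the cycle, were in part higher than in the other GFP− cells as well. Of 21, 17 reached 50 CPM, of which 10 were higher and 1, *Sox11*, lower. Of the 11 at 50 CPM in both groups, 4 were higher and 1 lower. *Dll3*, a divergent Notch ligand of newborn neurons, was 13.0-fold higher and *Btg2*, an antiproliferative gene of neurogenic divisions, 6.11-fold (5.64 to 6.60). *Atoh7*, which gives progenitors competence for ganglion cells and early neurons, was at 319 against 98.7 CPM (3.24-fold, 2.88 to 3.62), and *Hes6*, an inhibitor of HES1 action, at 1149 against 553 CPM (2.08-fold, 1.96 to 2.20), the last a call that was lost with TMM scaling (log2 ratio 0.89). *Neurog2*, a proneural bHLH factor, had a ratio of 1.82, below a call, and with limits of 3 *Otx2* and 2 *Crx* UMIs the log2 ratio of *Neurog2* turned from 0.87 to -0.28. *Neurog2* was found in 23.6% of the selected cells but also in 19.8% and 33.4% of the *Pou4f2* and *Tfap2b* cells, which are no clean background for a neurogenic gene. Its share in the selected cells lay between theirs, while its level was 347 CPM against 29.9 and 96.0 CPM in those cells.

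Genes of multipotent progenitors were lower. Of 17, 16 reached 50 CPM and 15 were lower, and of the 10 at 50 CPM in both groups 9 were lower. *Ccnd1*, the D cyclin of retinal progenitors, was at 159 against 1345 CPM (ratio 0.118, 0.100 to 0.138). *Hes1*, a Notch effector, had a ratio of 0.196 and *Sfrp2*, a secreted Wnt modulator, of 0.0749. *Notch1* was the 1 gene of this list that was not lower (ratio 1.56). A low sum of this list was not particular to the selected cells, which were at 1244 CPM. The other GFP− cells, of which 66.1% scored in S or G2M, were at 6771 CPM. The list was at 1598 CPM in the *Pou4f2* cells and 2731 CPM in the *Tfap2b* cells. In the 43 G1 cells with *Otx2* and no *Crx* it was at 1715 CPM. Leaving out the 4 doublet calls lowered the log2 ratio of *Hes1* from -2.35 to -4.32 and that of *Ccnd1* from -3.08 to -4.07. The ganglion cell genes were lower in 12 of the 12 that reached 50 CPM, of which 3 reached it in both groups. *Sncg*, a synuclein of ganglion cells, was at 27.9 against 951 CPM, and *Gap43*, a growth cone protein, at 57.8 against 1018 CPM.

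The second question was how these GFP− cells compared with GFP+ cells chosen by the same limits. Both comparisons use the same 148 cells. *Gngt2*, *Gnb3*, *Pdc*, *Thrb* and *Rxrg* were lower in the GFP− cells, *Neurog2*, *Atoh7* and *Hes6* were higher, and *Neurod1* and *Neurod4* were not called. Of 3726 genes at 50 CPM in either group, 166 were higher (4.46%) and 350 lower (9.39%) in the GFP− cells, with a median log2 ratio of -0.04.

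Of the fate regulators, 17 reached 50 CPM, 7 were lower and 0 higher, and of the 14 at 50 CPM in both groups 4 were lower. Without *Otx2* and *Crx*, 7 of 15 were lower and 0 higher. *Neurod1* was at 1103 against 1303 CPM (ratio 0.847, 0.796 to 0.899) and *Neurod4* at 498 against 496 CPM (1.003, 0.914 to 1.10), neither past a call, whereas *Prdm1* was at 165 against 362 CPM (0.456, 0.387 to 0.531). All 8 cone genes that reached 50 CPM were lower, 5 of which reached it in the selected cells as well. *Gngt2* was at 235 against 1870.0 CPM (ratio 0.126, 0.110 to 0.143), *Gnb3* at 99.7 against 604 CPM (0.166, 0.134 to 0.201), *Thrb* at 164 against 591 CPM (0.277, 0.236 to 0.323), *Rxrg* at 67.8 against 248 CPM (0.275, 0.212 to 0.347) and *Lhx4* at 43.9 against 141 CPM (0.314, 0.225 to 0.419). As *Lhx4* sequence drives the reporter that was sorted on, *Lhx4* levels set between the gates, here and below, are a description. The lowest ratios belonged to *Pcp4*, a calmodulin regulator (3.99 against 106 CPM), *Slc17a6*, the vesicular glutamate transporter VGLUT2 (5.98 against 126 CPM), and *Kcnab1*, a potassium channel subunit (11.0 against 162 CPM). *Pgc*, *Tmem215* and *Stx3* had ratios of 0.0834, 0.0913 and 0.0920, and *Rpgrip1*, a protein of the photoreceptor cilium, of 0.108.

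Of the neurogenic genes, 17 reached 50 CPM, 12 were higher and 0 lower, and of the 11 at 50 CPM in both groups 6 were higher. *Neurog2* was at 347 against 5.64 CPM (61.2-fold, 48.1 to 79.3), the highest ratio of the genes that reached 50 CPM, with 205 of its 348 UMIs in the 18 cells in S or G2M, 4 of them doublet calls. *Gadd45a*, a stress and cell cycle exit gene, was 9.55-fold higher (8.78 to 10.4), *Elavl3*, a neuronal RNA binding protein, 5.41-fold (4.71 to 6.20), *Atoh7* 5.02-fold (4.40 to 5.70) and *Hes6* 3.08-fold (2.89 to 3.28). Of 18 Notch pathway genes 9 reached 50 CPM and 7 were higher (2 of the 3 at 50 CPM in both groups), among them *Notch1* (5.21-fold) and *Dll4* (4.96-fold). Of 54 G2M genes 20 reached 50 CPM and 14 were higher (4 of the 10 at 50 CPM in both groups), with *Ube2c* at 42.1-fold and *Top2a* at 30.4-fold. Of 17 multipotent progenitor genes 10 reached 50 CPM and 7 were higher, none of them at 50 CPM in the GFP+ cells, and without the 4 doublet calls the log2 ratio of *Hes1* went from 3.12 to 1.15 and that of *Ccnd1* from 2.15 to 1.16. Cycling transcripts also came from few cells: *Top2a* had 92 UMIs in the selected cells, 88 of them in the 18 cells in S or G2M. *Fabp7* was at 700 against 476 CPM (1.47-fold, 1.36 to 1.59), not a call.

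**Figure D2:**
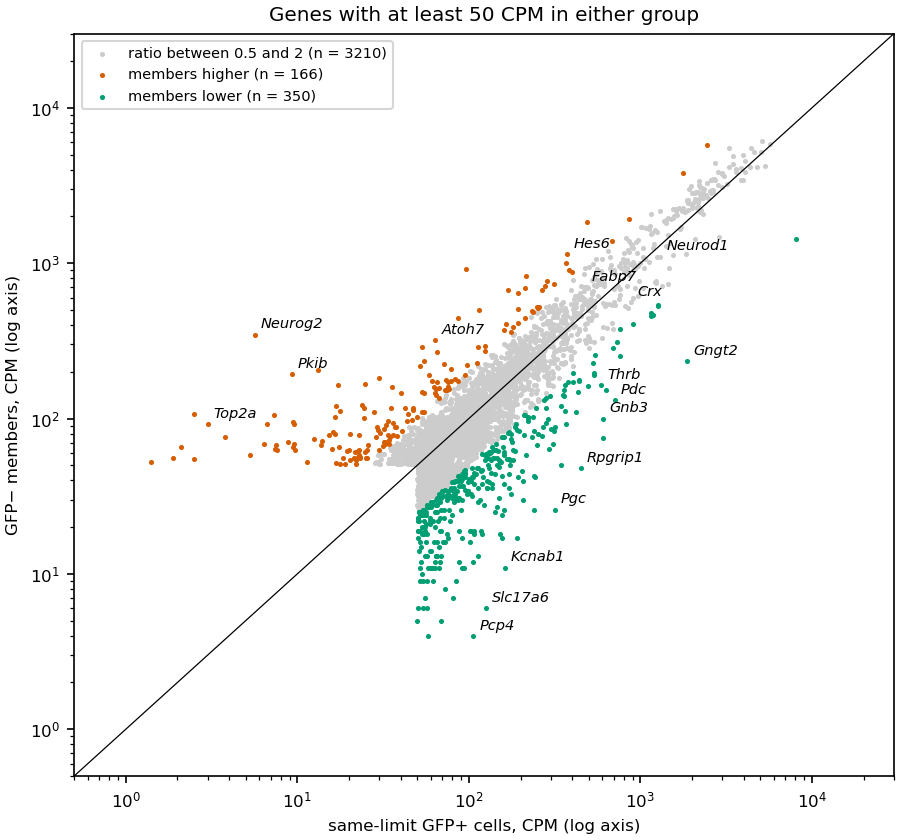
Summed CPM of the selected GFP− cells, written as members (y axis, log), against the GFP+ cells within the same limits (x axis, log), 1 point per gene at 50 CPM or more in either group, with the diagonal marking equal levels. The 166 genes at a ratio of 2 or more, led by *Neurog2*, are orange, the 350 at 0.5 or less, with *Gngt2*, *Pgc* and *Pcp4* among them, are green, and *Neurod1* and *Crx* lie between.

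The 148 cells were not alike among themselves. They were divided by phase and by the presence of *Gngt2* into 18 cells in S or G2M, 84 G1 cells without *Gngt2* and 46 G1 cells with it. These are ranges along a count, not cell types, and a cell with few UMIs can miss *Gngt2*. The G1 cells without *Gngt2* were the deeper ones, at a median of 6862 UMIs against 4579. Each gene below is described by its level in the 284 GFP− cells with *Otx2* and no *Crx*, then in the G1 cells without *Gngt2*, then in those with it.

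The first group was mostly in S or G2M and the others in G1, so phase changes along with *Crx*. Its 43 G1 cells were therefore also taken alone, a split chosen after the data were seen. The neurogenic factors stood lower at each step. *Neurog2* was at 1824, 239 and 4.42 CPM, the last from 1 UMI. *Hes6* was at 2759, 1118 and 438 CPM, and *Atoh7* at 567, 343 and 164 CPM. Intervals on these sums cover counting error and not spread between cells. How many of all genes stood lower at each step was not counted. In the 43 G1 cells the first values were 978 CPM for *Neurog2*, 2078 CPM for *Hes6* and 647 CPM for *Atoh7*, again above the next step. The cone regulators ran the other way, with *Thrb* at 4.08, 92.6 and 429 CPM, *Rxrg* at 1.85, 26.9 and 208 CPM, and *Lhx4* at 1.11, 23.6 and 119 CPM, followed by 591, 248 and 141 CPM in the GFP+ cells. *Prdm1* was at 32.6, 145 and 283 CPM. In the 43 G1 cells *Thrb* was at 24.2 CPM (9.73 to 49.9) and *Prdm1* at 55.3 CPM, while *Rxrg* and *Lhx4* had 2 and 3 UMIs, with intervals that overlapped those of the next step. Other genes peaked or levelled off within the selected cells. *Neurod4* was at 25.9, 578 and 526 CPM and at 496 CPM in the GFP+ cells, and in the 43 G1 cells without *Crx* it was at 166 CPM (122 to 220). *Dll3* was highest in the G1 cells without *Gngt2*, at 451 CPM, against 177 CPM before (297 CPM in the 43 G1 cells) and 230 CPM after. *Fabp7* was at 15.6 (76.1 in the 43 G1 cells), 620 and 1273 CPM, and lower again, at 476 CPM, in the GFP+ cells. *Pgc*, which codes for a pepsinogen, had no UMI in the cells without *Crx* or in the G1 cells without *Gngt2*, and was at 92.8 CPM with *Gngt2* and at 317 CPM in the GFP+ cells.

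**Figure D3:**
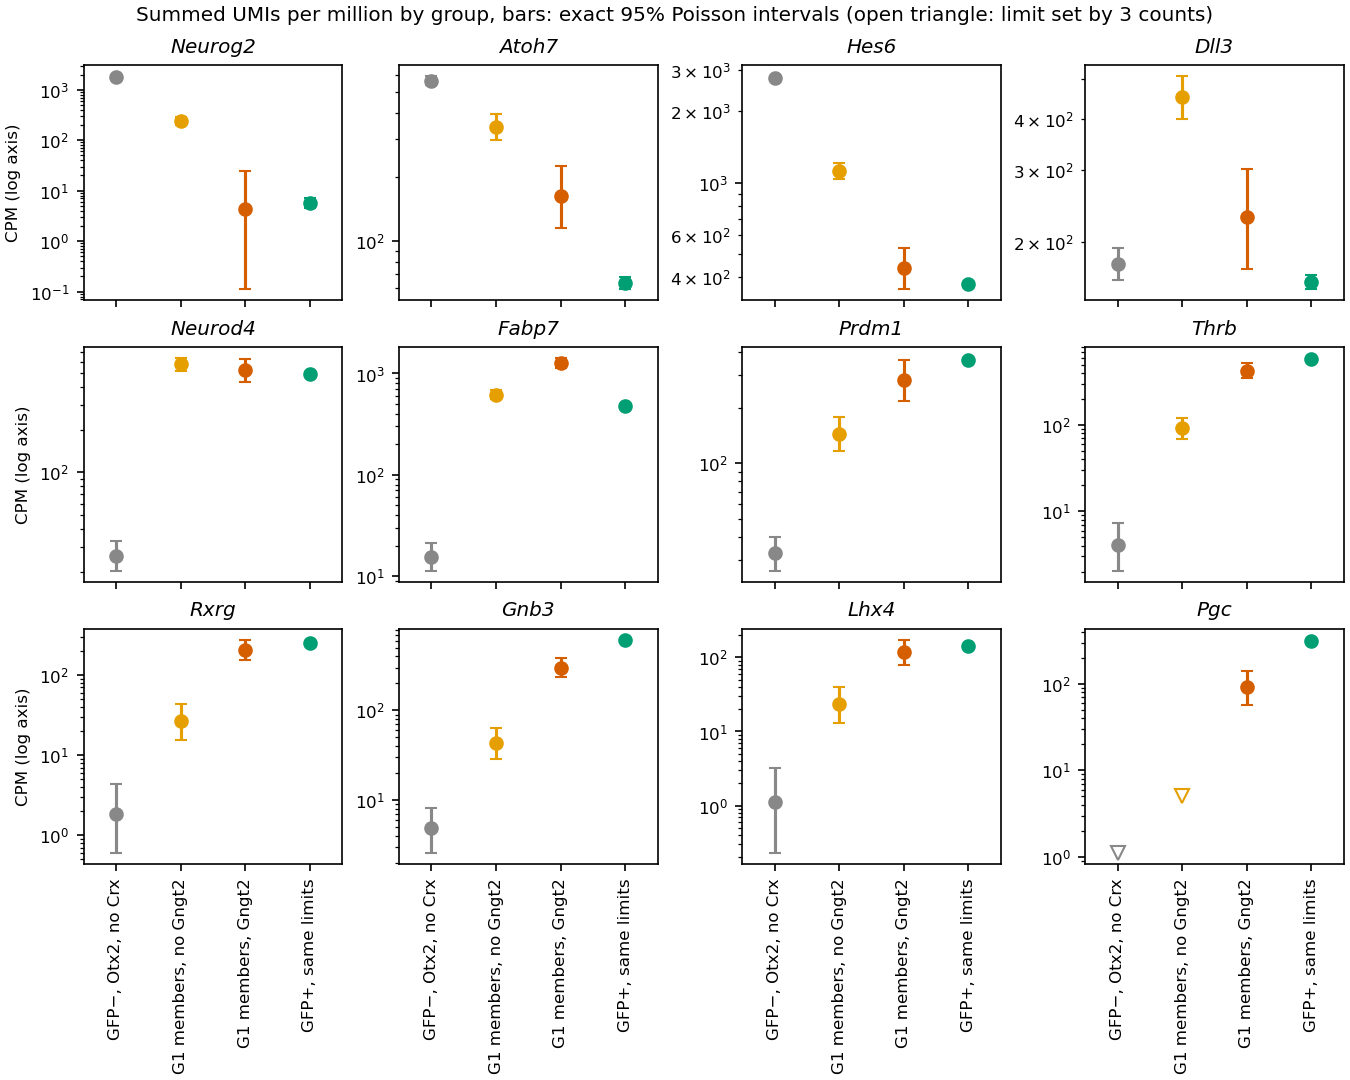
Summed CPM (log axes) of 12 genes in GFP− cells with *Otx2* and no *Crx* (grey, n = 284), G1 selected cells without *Gngt2* (yellow, n = 84), G1 selected cells with *Gngt2* (orange, n = 46) and GFP+ cells within the same limits (green, n = 3320), with exact 95% Poisson intervals and an open triangle where no UMI was found. Selected cells are written as members. The first group holds all phases. From the first to the third group *Neurog2*, *Atoh7* and *Hes6* stand lower and *Thrb*, *Rxrg*, *Gnb3* and *Lhx4* higher, and *Dll3* peaks in the second group.

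Within single cells, the shares with a UMI of these genes are given by *Gngt2* as a description. No background share is set beside them here. Of the 50 selected cells with *Gngt2*, 44% had an *Atoh7* UMI (interval 30.0 to 58.7), against 81.6% of the 98 without it (72.5 to 88.7), and 4% against 33.7% had *Neurog2*. The latter share was near that given above for *Tfap2b* cells, which are no clean background for this neurogenic gene. *Onecut1* was found in 20% against 45.9%. *Thrb* was found in 86% of the cells with *Gngt2* and 34.7% of those without, *Gnb3* in 76% and 22.4%, and *Lhx4* in 42% and 12.2%. *Neurod1* was found in 98% and 99.0%, close to every cell in both, so that this share could not show a difference. *Rxrg* was found in 50.6% of the cells with *Thrb* and 2.82% of those without it. The cells with *Gngt2* were shallower (median 4579 against 7125.5 UMIs), and the part of depth in these shares was not tested.

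Counted over the whole lists, a selected cell had a UMI of a median of 2 of the 22 cone genes, against 6 in the GFP+ cells within the limits and 0 in the other GFP− cells. Of the 148, 45 cells (30.4%) had none of them and 28 (18.9%) had 6 or more, against 2 and 2114 of the 3320 GFP+ cells. The cone list stood at a median of 1.41 UMIs per 10000 in G1 cells without *Gngt2*, 26.3 in those with it and 49.2 in the G1 GFP+ cells with *Gngt2*. That list holds *Gngt2*, which divided the cells, and without it the medians were 1.41, 20.1 and 28.6. The neurogenic list stood at 51.8, 41.4 and 31.1. Ranges were wide, from 2.08 to 68.9 for the cone list in the G1 cells with *Gngt2*.

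**Figure D4:**
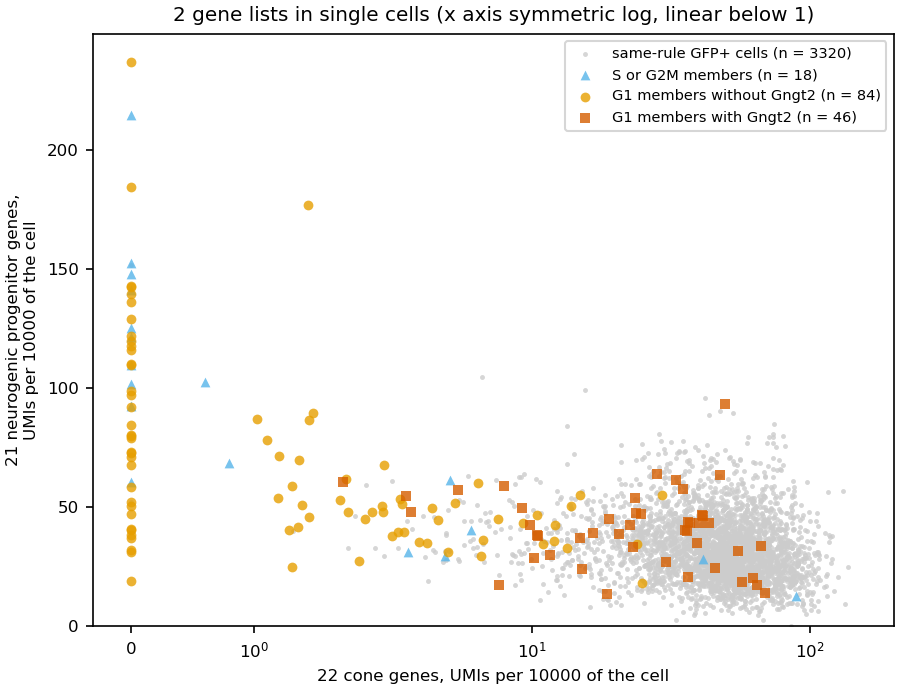
UMIs of 21 neurogenic progenitor genes (y axis) and of 22 cone genes (x axis, symmetric log, linear below 1), each per 10000 UMIs of the cell, 1 point per cell, for the 3 ranges of selected cells and, in grey, the 3320 GFP+ cells within the limits. Selected cells are written as members. Many cells without *Gngt2* spread up the left edge, most of the 46 G1 cells with *Gngt2* lie at or beside the grey cloud, and 45 selected cells sit at 0 cone UMIs.

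The 46 G1 cells with *Gngt2* were set beside 3102 G1 GFP+ cells within the limits that also had it. Of 3709 genes, 54 were higher (1.46%) and 156 lower (4.21%) in the GFP− cells, and the median log2 ratio was -0.01. Of 8 cone genes at 50 CPM, 3 were lower, all close to the limit of a call: *Gngt2* (ratio 0.461, 0.399 to 0.528), *Pdc* (0.482, 0.379 to 0.598) and *Gnb3* (0.488, 0.376 to 0.615), and *Gngt2* had been used to choose the cells. *Thrb* had a ratio of 0.710, *Rxrg* of 0.832 (0.604 to 1.10) and *Lhx4* of 0.839 (0.542 to 1.20). *Crx*, which set the limits in both groups, had a ratio of 1.02 (0.886 to 1.17). Of 17 fate regulators, *Otx2* and *Crx* among them, 1 was lower and 0 were higher. Of 12 neurogenic genes 3 were higher, which were *Atoh7* (2.85-fold, 1.97 to 3.91), *Elavl3* (3.57-fold, 2.50 to 4.86) and *Gadd45a* (2.31-fold, 1.66 to 3.07). *Fabp7* was at 1273 against 456 CPM (2.80-fold, 2.47 to 3.14). The highest ratio was that of *Fgf15*, a growth factor of progenitors, at 70.7 against 2.65 CPM from 16 UMIs in 46 cells. The lowest were those of *Pcp4* (ratio 0.140, 0.0247 to 0.352, from 3 UMIs) and *Slc17a6* (0.188).

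The 84 G1 cells without *Gngt2* were set beside 100 G1 GFP+ cells within the limits and without it, a comparison chosen after the data were seen. Of 3586 genes, 141 were higher (3.93%) and 258 lower (7.19%) in the GFP− cells. All 7 cone genes at 50 CPM were lower, 5 of which reached it in the GFP+ cells alone, with *Gnb3* at 43.8 against 309 CPM (ratio 0.144, 0.0897 to 0.215), *Rxrg* at 26.9 against 187 CPM and *Thrb* at 92.6 against 323 CPM. The GFP+ cells were the shallower ones (median 4838 against 6862 UMIs). Of 17 neurogenic genes 10 were higher and 1, *Insm1*, lower, and of the 12 at 50 CPM in both groups 6 were higher. *Neurog2* was at 239 against 3.89 CPM, the latter from 2 UMIs (49.3-fold, 16.7 to 512). *Neurod1* (ratio 0.864) and *Neurod4* (0.899) were again near even. *Lypd1*, *Nfib*, *Irx6* and *Irx5* were among the lowest, each from 1 or 2 UMIs in the GFP− cells, and *Pgc*, with no UMI there, was at least 24.7-fold lower than the 125 CPM of the GFP+ cells when 3 UMIs over the group are taken as the limit.

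The 18 cells in S or G2M were compared with 2838 other GFP− cells in those phases, and these values rest on 18 cells, 4 of which Scrublet called doublets. Their median depth was 9393 UMIs. Of 3248 genes, 302 were higher (9.30%) and 127 lower (3.91%). Without the doublet calls the counts were 499 and 193, with fewer cells behind each value. With TMM factors 200 genes were higher and 190 lower, so the excess of higher genes depended on the scaling. All 21 neurogenic genes reached 50 CPM and 18 were higher (7 of the 10 at 50 CPM in both groups), with *Dll3* at 10.3-fold (7.54 to 13.6), *Olig2*, a bHLH factor of progenitors that make cones and horizontal cells, at 6.80-fold (4.29 to 9.95), *Penk* at 5.44-fold and *Neurog2* at 4.23-fold (3.66 to 4.85). This was not particular to the 18 cells. The neurogenic list summed to 9214 CPM in them and to 11187 CPM in the 241 S or G2M GFP− cells with *Otx2* and no *Crx*. The multipotent list summed to 3239 and 3461 CPM in these 2 groups. *Neurod4* was at 202 against 2.59 CPM and *Prdm1* at 82.1 against 3.47 CPM, so that their transcripts were found in cells scored as cycling, doublet calls included. *Top2a* (1.37-fold, 1.09 to 1.68) and *Mki67* (0.852, 0.461 to 1.36) were near the level of other cycling cells. *Gngt2* was at 170 CPM, with UMIs in 4 of the 18 cells, and 2 of the 50 selected cells with *Gngt2* were doublet calls, both in S or G2M. Of 16 multipotent genes 10 were lower (7 of the 13 at 50 CPM in both groups) and 1, *Notch1*, higher, and outside that list *Cp* and *Aldh1a1* had no UMI.

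Markers of other cell types were summed over each group, and the other GFP− cells hold those cell types themselves. The 13 ganglion cell genes summed to 772 CPM against 5202 CPM in the other GFP− cells and 757 CPM in the GFP+ cells within the limits, 490 of their 774 UMIs from *Stmn2*, a microtubule regulator of many young neurons, with *Pou4f1* among those at 0. Per cell the ganglion genes had a median of 5.64 UMIs per 10000 in the selected cells and 2.65 in the other GFP− cells. The 10 amacrine and horizontal genes summed to 79.8 CPM against 230 CPM, with *Lhx1* and *Sall1* at 0, and 3 cells had at least 2 UMIs of *Pou4f2* or *Tfap2b*. The 9 rod genes were above the other GFP− cells, at a sum of 29.9 against 4.46 CPM and 88.9 CPM in the GFP+ cells, with *Nr2e3* and *Gnat1* at 0 and the rod factor *Nrl* in 8 cells (5.41%, against 0.370% and 0.322% of the *Pou4f2* and *Tfap2b* cells). The 8 bipolar genes summed to 21.9 against 14.6 CPM, 6 of them had no UMI, and *Lhx3* gave 15 of the 22 UMIs. The 10 pigment epithelium genes had 1 UMI, from *Tyr*. The 14 genes of blood, vessels, microglia, lens and connective tissue summed to 22.9 CPM against 259 CPM, most of the latter from *Hba-a1*. Of 13 ATF4 stress genes, which can report on cell handling, 4 reached 50 CPM and 3 were lower than in the GFP+ cells, where 9.39% of all genes were lower. *Atf4* was at 195 against 404 CPM and 139 CPM in the other GFP− cells. Against the other GFP− cells 2 of 4 were lower (0 of the 2 at 50 CPM in both groups), beside 6.55% of all genes. Of 10 immediate early and heat shock genes, 5 reached 50 CPM and 1, *Jun*, was lower than in the GFP+ cells, beside the same 9.39%. The part of these differences in the results was not tested.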

How the data were processed

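Per the labels and the methods of the study, live cells were sorted by GFP, and 10x Chromium 3′ v2 libraries were aligned and counted with Cell Ranger 2.1.1 against mm10. The authors deposited UMI counts per gene and cell, 1 filtered matrix per gate, with 28692 genes. The mitochondrial limit removed 1 GFP− cell; the limit of 3500 genes, which would remove 1053 GFP− and 39 GFP+ cells, was used as an alternative only. The members and gene lists were chosen with earlier results of these data known. Counts of a group were summed and scaled to CPM, with exact Poisson 95% intervals. Phases were scored with scanpy 1.11.5 on 42 S and 54 G2M genes, and doublets were called with its Scrublet at an expected rate of 0.03 and kept. Scrublet marked few GFP+ cells, so doublets there are largely unassessed. Genes named were *Otx2*, *Crx*, the members of 16 lists and the 10 highest and 10 lowest ratios of each comparison. TMM factors came from edgeR 4.0.16. The ratio and interval steps were tested on simulated Poisson sums, which hold no spread between cells. Of 13 alternatives, leaving out shared barcodes and leaving out cells with *Pou4f2* or *Tfap2b* were chosen after seeing the data, as were the comparison of G1 cells without *Gngt2*, the split by phase of cells without *Crx*, the cone list without *Gngt2*, and the list counts over genes at 50 CPM in both groups. The log2 ratios of single genes under other *Otx2* and *Crx* limits, and without doublet calls, were also not planned. Some genes of these lists are not reported here.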

Additional observations from a re-analysis of the deposited data

How the results depend on the processing

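None of the called ratios of the 25 genes followed changed sign, and 402 of 500 log2 ratios stayed within the interval of the reported value under the alternatives. Applying the limits after thinning every cell to 3200 UMIs left 93 of the 148 cells. It gave 406 genes higher than in the other GFP− cells, 1362 higher and 322 lower in the cells in S or G2M, 168 and 261 in G1 cells with *Gngt2*, and 271 and 437 in those without. With no filter on low values the counts of higher and lower genes were 6070 and 1958 against the other GFP− cells, 4332 and 2233 against the GFP+ cells, 8043 and 1132 in S or G2M, 5970 and 1437 in G1 with *Gngt2*, and 1957 and 2556 without. Limits of 3 *Otx2* and 2 *Crx* UMIs gave a share in S or G2M of 6.25%. The comparison of cells in S or G2M was the least stable, at 736 and 221 under those limits, 705 and 221 with 250 to 3500 genes, 499 and 193 without doublet calls, 200 and 190 with TMM factors, and 198 and 193 with median-of-ratios factors. No paired analysis was possible because each gate held 1 library. With 148 cells, a gene at 0 could still reach 2.99 CPM.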

Other observations

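The ratios to GFP+ cells also covered genes outside the lists. *Magel2*, an imprinted gene, was at 101 CPM in the selected cells and 24.4 CPM in the GFP+ cells within the limits (4.14-fold higher). *Pkib*, an inhibitor of protein kinase A, was 20.7-fold higher, and *Igfbp2*, which binds insulin-like growth factors, 15.7-fold higher. Both stayed higher in G1 cells with *Gngt2*, at 7.96-fold for *Pkib* and 6.54-fold for *Igfbp2*. A further 47 GFP− cells had a *Crx* UMI and no *Otx2*, and 53.2% of these scored in S or G2M.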
